A study of Rattus norvegicus and Mus musculus with 24 samples.

Results

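Dedifferentiating kidney tubules are followed by a small set of cytoskeletal and adhesion genes: VIM, the keratins KRT7, KRT8, KRT18, KRT19 and KRT20, and the cadherins CDH1, CDH2, CDH6 and CDH16. The rule takes these 10 genes by symbol and uses no measured value, although the set was drawn up with earlier results of these data known. All 10 were found among the 17376 symbols of the mouse table and 9 among the 14931 of the rat table, whose symbols are written in the human style. KRT20 was not analysed in rats here. The kidneys came from mouse and rat lines that lack Ctns, which encodes the lysosomal cystine transporter cystinosin, and from their wild-type littermates.

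The mouse libraries came from 4 Ctns KO and 4 Ctns WT animals on a C57BL/6 background, and the rat libraries from 8 Ctns KO and 8 Ctns WT animals on a Sprague-Dawley background. Both lines carry the knockout in the whole body. The study's mice were female and of several ages. Which age the sequenced mice had, and the age, sex and any treatment of the sequenced rats, are not given in the sources used here. The rats are numbered 17 to 24 and 25 to 32, with 4 of each genotype in each range, and what a number range stands for is not labelled. The methods and the labels name kidney cortex, whereas the labelled extraction protocol speaks of microdissected proximal tubules. Markers of thick ascending limb, collecting duct, podocytes and endothelium were all present in every library, so the RNA was not that of proximal tubule cells alone. In the mouse, Ctns fell from 0.918 ± 0.0869 in WT to 0.332 ± 0.0102 in KO kidneys (scaled value, SD, n = 4 each; limma adjusted p = 0.000898). In the rat it was 22.3 ± 2.98 CPM in WT and 19.1 ± 1.86 CPM in KO kidneys (SD, n = 8 each; edgeR adjusted p = 0.0511), with overlapping groups. Within rats 25 to 32 Ctns was lower in KO animals (log2 fold change -0.32, edgeR adjusted p = 0.0391), and in rats 17 to 24 it did not pass (-0.11, edgeR adjusted p = 0.514), so its level checks the rat labels only in part. Each mouse library held 19309449 to 44449859 reads and each rat library 24684097 to 40629873 reads.

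Vimentin and the keratins are intermediate filament proteins. Vimentin builds the filaments of fibroblasts, endothelial cells, leukocytes and podocytes, and mature tubule cells make little of it until they are injured. Simple epithelia pair a type II keratin (KRT7 or KRT8) with a type I keratin (KRT18, KRT19 or KRT20). Cadherins join neighbouring cells through calcium. CDH1 (E-cadherin) is the classical epithelial cadherin, CDH2 (N-cadherin) and CDH6 are found in proximal tubules, and CDH16 is a cadherin of the kidney's tubular epithelium.

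VIM was the 1 member called higher in Ctns KO than in WT rats of both number ranges. It reached 1.43 times its WT level in rats 17 to 24 and 3.19 times in rats 25 to 32. KRT8, KRT18 and KRT19 rose in rats 25 to 32, KRT8 to 2.08 times its WT level, and KRT7 fell in rats 17 to 24, to 0.843 of its WT level. Among the cadherins, CDH2 alone passed the test, falling to 0.794 of its WT level in rats 25 to 32. CDH1, CDH6 and CDH16 did not pass in any rat comparison of genotype. In mice, KRT20 alone passed, at a mean 11.95 times that of WT kidneys but from very low levels. Counted over the members, 2 of 9 rose over all rats (VIM and KRT8), where 15.2% of all symbols tested rose, and 0 fell by edgeR, DESeq2 or limma-voom, where 12.3% fell. At an unadjusted p under 0.05, 1 fell (CDH2). In rats 17 to 24, 1 rose against 5.07% of all symbols and 1 fell against 2.19%. In rats 25 to 32, 4 rose against 21.8% and 1 fell against 22.1%. These counts stand beside the shares without a test. For the interaction, 4 had a more positive change in rats 25 to 32 (VIM, KRT7, KRT8 and CDH16) against 7.1% of all symbols, and 0 a more negative one by edgeR or limma-voom, also at an unadjusted p under 0.05, against 7.64%.

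Rat promoter sequences were taken from RefSeq (build GRCr8) for VIM, whose change was tested in both ranges and rose in each, and for the partner keratins KRT8 and KRT18, which rose together in rats 25 to 32. The sequences run from 250 bases before to 50 bases after the annotated start, on the strand of the gene. Promoters were found for 5 of the 10 members. The search covered TATAAA (the TATA element), GGGCGG (a GC box), CCAAT and TGANTCA (an AP-1 type element) on both strands, and the capitals mark every match. Vim lies at chr17:81577011-81577310 on the plus strand, Krt8 at chr7:135010290-135010589 on the minus strand, and Krt18 at chr7:135035918-135036217 on the plus strand.
Vim: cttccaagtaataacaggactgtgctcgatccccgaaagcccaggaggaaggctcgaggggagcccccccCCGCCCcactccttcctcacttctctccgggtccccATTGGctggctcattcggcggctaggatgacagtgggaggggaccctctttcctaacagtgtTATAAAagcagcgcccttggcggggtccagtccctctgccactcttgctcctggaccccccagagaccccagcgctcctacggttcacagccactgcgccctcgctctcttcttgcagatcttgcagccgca
Krt8: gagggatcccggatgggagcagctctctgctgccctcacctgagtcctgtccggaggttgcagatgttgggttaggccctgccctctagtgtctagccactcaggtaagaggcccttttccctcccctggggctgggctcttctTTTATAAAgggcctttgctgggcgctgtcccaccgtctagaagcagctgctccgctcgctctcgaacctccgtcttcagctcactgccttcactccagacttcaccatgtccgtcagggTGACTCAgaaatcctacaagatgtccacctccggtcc
Krt18: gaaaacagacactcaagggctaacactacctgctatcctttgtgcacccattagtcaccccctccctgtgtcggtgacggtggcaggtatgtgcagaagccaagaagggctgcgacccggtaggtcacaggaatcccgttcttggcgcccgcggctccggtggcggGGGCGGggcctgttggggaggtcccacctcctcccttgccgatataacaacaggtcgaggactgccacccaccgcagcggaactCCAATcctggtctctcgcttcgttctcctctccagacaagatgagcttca
In Vim the capitals show TATAAA from 82 bases before the start, CCAAT on the other strand from 144 bases before it and GGGCGG on the other strand from 180 bases before it. Krt8 holds TATAAA on both strands in overlapping letters, from 106 and 104 bases before the start, and TGANTCA from base 14 after it. The annotated start of Krt8 falls on the letters atg, which open a reading frame without a stop codon to the end of the window. The TGANTCA match thus probably lies in coding sequence, and the distances in Krt8 may not be from a transcription start. Krt18 has GGGCGG from 84 bases before the start and CCAAT at the start itself. Of 33469 rat promoters of the same length, 14.2% hold TATAAA, 33.1% GGGCGG, 37.5% CCAAT and 7.33% TGANTCA on either strand. The 3 sequences have no one motif of the 4 in common. These matches are letters in a window and were not tested for binding.

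Levels of different genes can be compared in the mouse, where gene lengths are known from GENCODE vM21 on mm10, a build the submitters name. In WT mice, CDH16 stood highest at 485 ± 56.8 CPM per kilobase of exon (SD, n = 4). CDH1 followed at 63.2 ± 3.76 and KRT8 at 55.5 ± 7.04 CPM per kilobase, and these overlapped between mice. Next came KRT7 at 37.1 ± 2.71, VIM at 22.9 ± 4.65 and KRT18 at 15.3 ± 2.10 CPM per kilobase, each apart from its neighbours. KRT19 (1.86 ± 1.07), CDH2 (1.69 ± 0.48) and CDH6 (1.58 ± 0.47 CPM per kilobase) could not be ordered within their spread. KRT20 was lowest at 0.160 ± 0.134 CPM per kilobase. In KO mice KRT20 stood at 2.11 ± 0.63 CPM per kilobase, beside KRT19 (1.77 ± 0.50), CDH2 (1.80 ± 0.24) and CDH6 (1.88 ± 0.11). Krt8 (chr15:101996698-102004482) and Krt18 (chr15:102028180-102032027) lie next to each other with Krt7 (chr15:101411043-101430313) on the same chromosome, Krt19 (chr11:100140810-100148665) and Krt20 (chr11:99428403-99438150) share another, and Vim lies at chr2:13573927-13582826. Cdh1 (chr8:106603351-106670246) and Cdh16 (chr8:104601911-104624396) also share a chromosome, and Cdh6 lies at chr15:13028701-13173675. Krt8 and Krt18 each have 1 near-identical pseudogene (at least 90% identity over 200 bases or more), and Cdh16 shares such a stretch with 2 other coding genes, so their reads are uncertain to that extent.

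The genotypes were compared in the rats by the quasi-likelihood test of edgeR, adjusted after Benjamini and Hochberg over all symbols that passed its filter on low counts, and all 9 members passed that filter in each comparison. Levels are CPM scaled between libraries by the TMM method. VIM was at 87.4, 91.4, 88.1 and 89.2 CPM in WT rats 17, 19, 21 and 23, and at 107, 136, 115 and 150 CPM in KO rats 18, 20, 22 and 24. In the other range it was at 71.1, 74.5, 82.2 and 77.4 CPM in WT rats 25, 27, 29 and 31, and at 226, 283, 233 and 231 CPM in KO rats 26, 28, 30 and 32. Every KO rat was above every WT rat of both ranges, and KO rats 25 to 32 were above all others. The log2 fold change was 0.52 ± 0.09 (SE; adjusted p = 0.00523) in rats 17 to 24 and 1.67 ± 0.08 (adjusted p = 4.76e-07) in rats 25 to 32. Over all 16 rats it was 1.16 ± 0.18 (adjusted p = 0.000189). The change was larger in rats 25 to 32 by 1.16 ± 0.13 on the log2 scale (edgeR interaction term, adjusted p = 7.42e-05). Among WT rats alone, VIM was lower in range 25 to 32, at 0.857 of the level of rats 17 to 24 and without overlap.

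**Figure D1:**
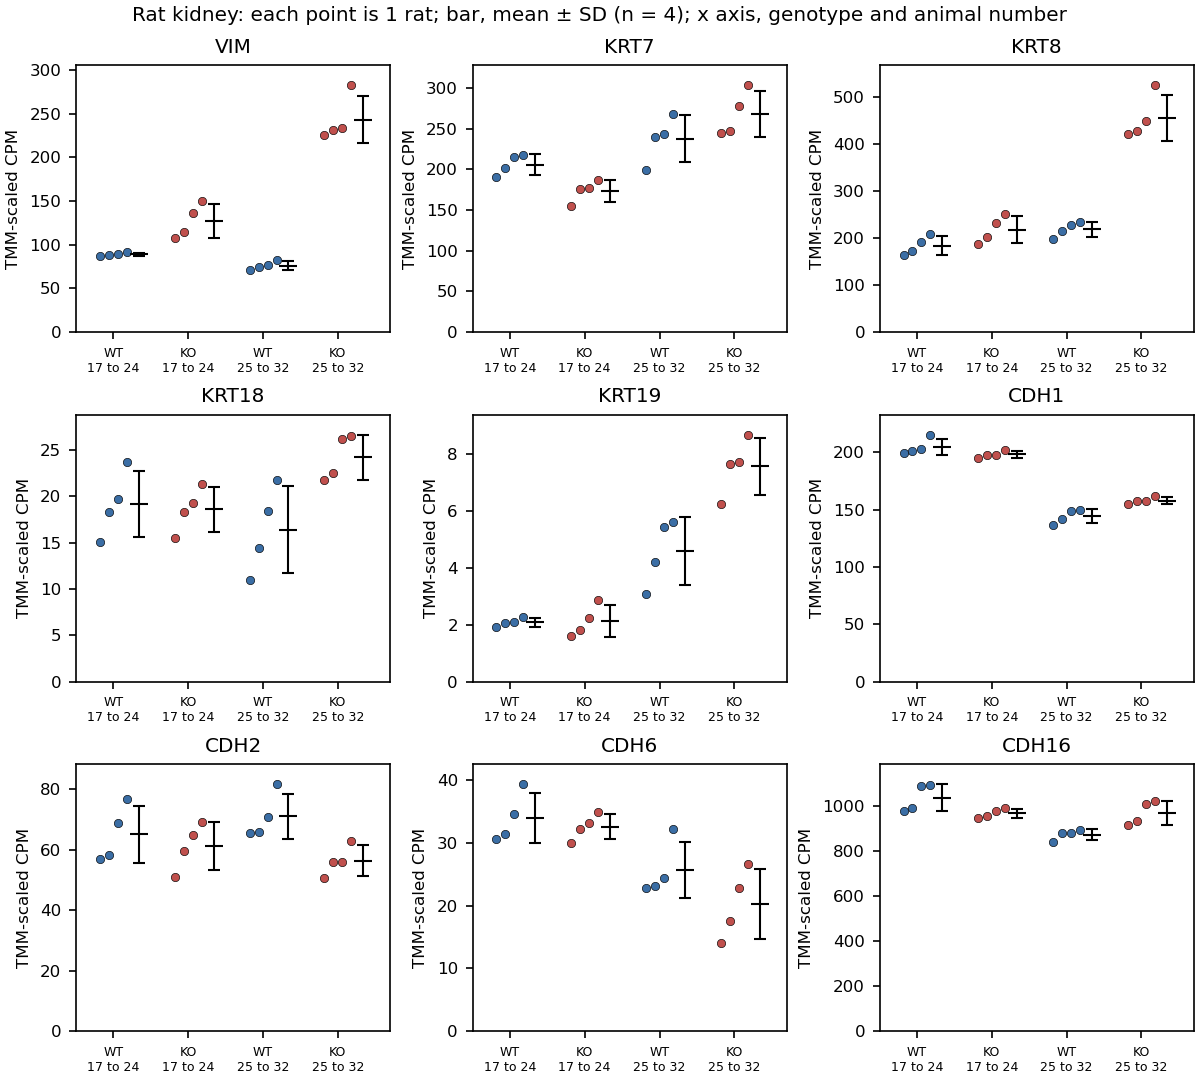
Level of each member in each rat (y axis, TMM-scaled CPM from 0) by genotype and number range (x axis). Points are rats and bars the mean ± SD of 4 rats; VIM and KRT8 of KO rats 25 to 32 stand above every other rat, while CDH1 is lower in range 25 to 32 in both genotypes.

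Markers of other cells moved with genotype beside VIM. Of 7 fibroblast and pericyte markers tested in rats, 6 were higher in KO over all rats, where 15.2% of all symbols rose. Among them were DCN (log2 fold change 1.66) and COL3A1 (0.89). LUM, 1 of the 6, averaged 0.347 CPM in WT and 0.794 CPM in KO rats. It reached the level of the filter on low counts in 4 of 8 WT and 8 of 8 KO rats. LUM thus entered the test through the group where it is high, and its levels are a description. The summed level of the 7 markers was 263 to 291 CPM in WT and 325 to 432 CPM in KO rats 17 to 24. In rats 25 to 32 it was 258 to 298 CPM in WT and 475 to 534 CPM in KO animals. Of 7 macrophage and leukocyte markers tested, 6 were higher against the same 15.2%, among them CD3E (1.69), C1QB (1.35) and C1QA (1.06). The sum of the 8 listed ran from 89.7 to 121 CPM in WT and from 149 to 165 CPM in KO rats 17 to 24, and from 136 to 163 CPM in WT and from 281 to 383 CPM in KO rats 25 to 32. Endothelium and podocytes, which also hold vimentin, gave no higher sums in KO rats. The endothelial sum was 500.5 to 628 CPM in WT and 417 to 588 CPM in KO rats, and the podocyte sum 674.5 to 1120.0 and 547 to 1009 CPM. Within rats 25 to 32 the endothelial sum was 500.5 to 533 CPM in WT and 417 to 467 CPM in KO animals, without overlap. Within rats 17 to 24 it overlapped, at 573.5 to 628 and 572 to 588 CPM. The sum of 7 proximal tubule markers was 11640 to 17430 CPM in WT and 7846 to 10500.0 CPM in KO rats. Of the 7, 5 fell over all rats, where 12.3% of all symbols fell. No defining marker of fibroblasts, leukocytes, endothelium, podocytes or proximal tubule was at 0 throughout a group. The part of these cells in the VIM result was not tested, and in bulk RNA fewer cells of a type and less RNA per cell cannot be told apart.

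**Figure D2:**
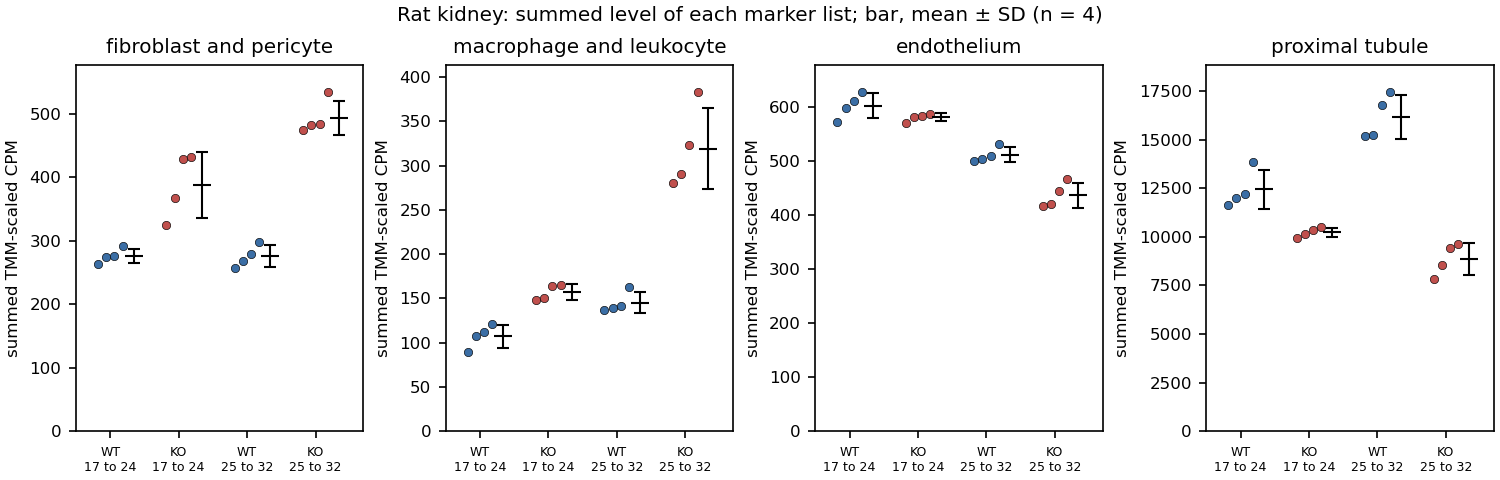
Summed TMM-scaled CPM of 4 fixed marker lists in each rat (y axis from 0) by genotype and number range (x axis). Points are rats and bars the mean ± SD of 4 rats; the fibroblast and leukocyte sums of every KO rat lie above those of the WT rats of its own range, and the proximal tubule sums lie below them.

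KRT8, a type II keratin of simple epithelia, was the only keratin among the members that passed over all rats. It measured 164, 208, 191 and 173 CPM in WT rats 17, 19, 21 and 23, and 186, 250.5, 202 and 232 CPM in KO rats 18, 20, 22 and 24, and these groups overlapped. In WT rats 25, 27, 29 and 31 it measured 216, 197, 227 and 235 CPM, against 448, 525, 420.0 and 426 CPM in KO rats 26, 28, 30 and 32, with no overlap. Its log2 fold change was 0.25 ± 0.10 (SE; edgeR adjusted p = 0.170) in rats 17 to 24, 1.06 ± 0.09 (adjusted p = 1.09e-05) in rats 25 to 32 and 0.74 ± 0.20 (adjusted p = 0.0102) over all rats. The difference between the ranges was 0.81 ± 0.14 on the log2 scale (edgeR interaction, adjusted p = 0.00166).

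KRT18 is the usual partner of KRT8. WT rats of both ranges ran from 11.01 to 23.7 CPM. KO rats 17 to 24 lay between 15.5 and 21.3 CPM and KO rats 25 to 32 between 21.7 and 26.5 CPM. WT rat 31, at 21.8 CPM, fell just within the latter group. The log2 fold change was -0.03 ± 0.13 (SE; edgeR adjusted p = 0.930) in rats 17 to 24 and 0.57 ± 0.18 (adjusted p = 0.0258) in rats 25 to 32, and the difference between these changes did not pass (0.61 ± 0.25 on the log2 scale, edgeR interaction, adjusted p = 0.104). Without KO rat 26, KO rat 28 or WT rat 29 the change in rats 25 to 32 lost its call, at log2 fold changes of 0.53, 0.53 and 0.51 (edgeR adjusted p = 0.0528, 0.0641 and 0.0711).

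KRT19, a type I keratin of ducts and distal nephron, differed between the number ranges. It was at 1.91 to 2.27 CPM in WT and 1.62 to 2.87 CPM in KO rats 17 to 24, which overlapped. In rats 25 to 32 it was at 4.20, 3.08, 5.61 and 5.45 CPM in WT animals and at 6.25, 8.69, 7.71 and 7.65 CPM in KO animals, with no overlap. The WT mean of rats 25 to 32 was 2.198 times that of WT rats 17 to 24, and this difference between ranges is a description. Its log2 fold change was 0.05 ± 0.19 (SE; edgeR adjusted p = 0.930) in rats 17 to 24 and 0.73 ± 0.19 (adjusted p = 0.0103) in rats 25 to 32, and the difference between them was 0.69 ± 0.28 (edgeR interaction, adjusted p = 0.0986). With the number range as a covariate KRT19 also passed over all rats, at a log2 fold change of 0.42 (edgeR adjusted p = 0.0453). Its deposited rat counts were not all whole reads, so its values are uncertain to that extent. Markers of the nephron segments beyond the proximal tubule, where these keratins are found, were tested as well. Of 4 collecting duct markers tested over all rats 1 rose (SCNN1B, 0.34), with sums of 555 to 779 CPM in WT and 546 to 759 CPM in KO rats. Of 3 distal tubule markers 1 rose (CALB1, 0.36), and of 3 thick ascending limb markers UMOD rose (0.31) and CLDN10 fell (-0.50). Over all rats 15.2% of all symbols rose and 12.3% fell, and counts of 1 in lists this short cannot be set apart from these shares. In rats 25 to 32, where KRT8, KRT18 and KRT19 rose, the thick ascending limb sum was 2403 to 2973 CPM in WT and 3103 to 3997 CPM in KO animals. The distal tubule sum was 733 to 975 and 1012 to 1159 CPM, and neither sum overlapped. Each was mostly 1 gene, UMOD (means 2029 CPM in WT and 3148 CPM in KO) and CALB1 (670 and 946 CPM). The median log2 fold change of the 3 tested markers there was -0.07 for thick ascending limb and -0.25 for distal tubule. CLDN10 fell there (-0.68), so the sums do not speak for the other markers. In rats 17 to 24 both sums overlapped between the genotypes. The collecting duct sum of rats 25 to 32 overlapped, while SCNN1B and SCNN1G rose and AQP3 fell there. The urothelium sum of that range was 3.85 to 6.29 CPM in WT and 2.12 to 3.12 CPM in KO animals, and GRHL3, the 1 urothelium marker tested, did not pass over all rats and fell in rats 25 to 32. PVALB of the distal list was at 0 in every WT rat and UPK3A of the urothelium list in every rat. The part of these segments in the keratin results was not tested.

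KRT7, the other type II keratin, went the other way in rats 17 to 24. It measured 217, 202, 215 and 190 CPM in WT rats 17, 19, 21 and 23 and 176, 177, 155 and 187 CPM in KO rats 18, 20, 22 and 24, and the KO rats were all lower. The log2 fold change there was -0.24 ± 0.07 (SE; edgeR adjusted p = 0.0484), close to the threshold. Leaving out any rat of this range other than WT rat 23 ended the call, with log2 fold changes of -0.28 to -0.19 and adjusted p-values up to 0.135 (edgeR). In rats 25 to 32 the groups overlapped, at 199 to 268 CPM in WT and 245 to 304 CPM in KO rats, with a log2 fold change of 0.17 ± 0.10 (adjusted p = 0.170, edgeR). The changes of the number ranges differed by 0.42 ± 0.13 on the log2 scale (edgeR interaction, adjusted p = 0.0362), and 8 of the 16 fits that left out 1 rat kept this call. Over all rats KRT7 was at -0.01 ± 0.13, KRT18 at 0.27 ± 0.14 and KRT19 at 0.55 ± 0.38 on the log2 scale, and none of these 3 passed (edgeR adjusted p = 0.979, 0.172 and 0.303).

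**Figure D3:**
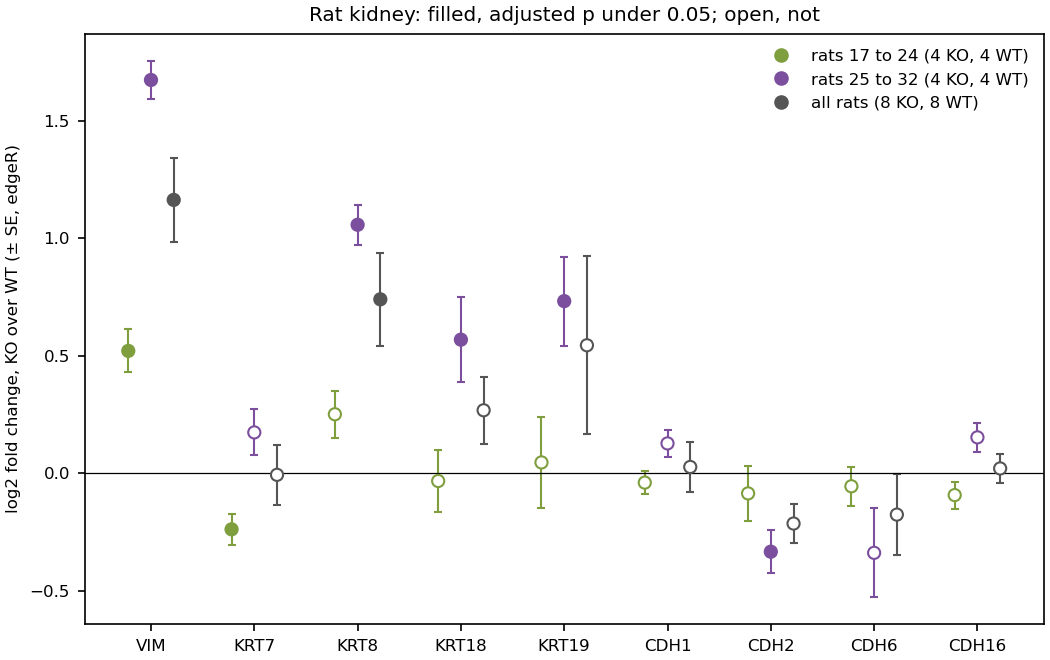
Log2 fold change of KO over WT (y axis, ± SE, edgeR) for the 9 members (x axis) in rats 17 to 24, rats 25 to 32 and all rats. Filled points have an adjusted p under 0.05; VIM is filled in all 3 comparisons, and the change of VIM and KRT8 is larger in rats 25 to 32.

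Of the cadherins, CDH2 fell in rats 25 to 32. It was at 65.7, 81.8, 70.9 and 66.1 CPM in WT rats 25, 27, 29 and 31 and at 63.0, 56.0, 56.1 and 50.7 CPM in KO rats 26, 28, 30 and 32, and all KO rats were lower. Its log2 fold change was -0.33 ± 0.09 (SE; edgeR adjusted p = 0.0144). In rats 17 to 24 the groups overlapped, at 56.9 to 76.9 CPM in WT and 51.0 to 69.4 CPM in KO, with a log2 fold change of -0.08 ± 0.12 (adjusted p = 0.762, edgeR). The difference between the ranges did not pass (-0.24 ± 0.15, edgeR interaction, adjusted p = 0.280), and over all rats the change was -0.21 ± 0.08 (edgeR adjusted p = 0.0626). With the number range as a covariate the change over all rats was the same in size and passed (edgeR adjusted p = 0.0463). CDH2 also passed over all rats without KO rat 22, WT rat 17 or WT rat 19 (edgeR adjusted p = 0.0279, 0.0374 and 0.0311). The sum of the proximal tubule markers was 15190 to 17430 CPM in WT and 7846 to 9605 CPM in KO rats 25 to 32, and its part in the CDH2 result was not tested.

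CDH1 differed by number range. WT rats were at 200 to 216 CPM in range 17 to 24 and 137 to 150 CPM in range 25 to 32, and KO rats at 195 to 202 and 155 to 162 CPM. The ranges did not overlap in either genotype. The log2 fold change of genotype was -0.04 ± 0.05 (SE; edgeR adjusted p = 0.723) in rats 17 to 24, and in rats 25 to 32 it was 0.13 ± 0.06 (adjusted p = 0.0871, edgeR), where the KO rats were nevertheless all above the WT rats. Over all rats it was 0.03, with a 95% interval (normal, from the SE) of -0.18 to 0.24.

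CDH16, the kidney cadherin, was at 978 to 1091 CPM in WT and 946 to 991 CPM in KO rats 17 to 24. In rats 25 to 32 it was at 838 to 892 CPM in WT and 916 to 1021 CPM in KO animals, and there the KO rats were all higher. Neither change passed the test (log2 fold changes -0.09 ± 0.06 and 0.15 ± 0.06, SE; edgeR adjusted p = 0.413 and 0.0677). Their difference did, at 0.25 ± 0.08 on the log2 scale (edgeR interaction, adjusted p = 0.0477), a call that only 4 of the 16 fits that left out 1 rat kept (adjusted p between 0.0260 and 0.105). CDH6, a cadherin of the proximal tubule, had lower means in range 25 to 32 in both genotypes. It ran from 30.6 to 39.3 CPM in WT and 29.99 to 34.9 CPM in KO rats 17 to 24, and from 22.8 to 32.3 CPM in WT and 14.1 to 26.5 CPM in KO rats 25 to 32. Its log2 fold changes of -0.05 ± 0.08 and -0.34 ± 0.19 did not pass (SE; edgeR adjusted p = 0.789 and 0.171). Without KO rat 30, CDH6 passed at -0.50 and CDH16 at 0.18 in rats 25 to 32 (edgeR adjusted p = 0.0472 and 0.0350). Over all rats CDH6 was at -0.17 ± 0.17 and CDH16 at 0.02 ± 0.06 (log2 fold change; edgeR adjusted p = 0.481 and 0.826).

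With library totals in place of TMM, a scaling chosen after seeing the data, 7 members rose and 0 fell in rats 25 to 32. The median log2 fold change of all symbols there was then 0.15, against -0.01 with TMM. CDH1, CDH16 and KRT7 passed on it (log2 fold changes 0.29, 0.32 and 0.34) and CDH2 did not (-0.17), a shift close to that of the median in each case.

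Ratios of reads within a library do not depend on the scaling and are given as a description. VIM to CDH1 was 0.435 ± 0.009 in WT and 0.640 ± 0.091 in KO rats 17 to 24, and 0.529 ± 0.050 in WT and 1.54 ± 0.18 in KO rats 25 to 32 (SD, n = 4 each). KO rats were above WT rats in each range, and KO rats 25 to 32 were apart from all others. CDH2 to CDH1 was 0.320 ± 0.054 in WT and 0.309 ± 0.042 in KO rats 17 to 24. In rats 25 to 32 it was 0.492 ± 0.044 in WT and 0.357 ± 0.025 in KO animals, without overlap. KRT8 to KRT7 was 0.895 ± 0.113 and 1.25 ± 0.15 in WT and KO rats 17 to 24, and 0.923 ± 0.054 and 1.70 ± 0.12 in rats 25 to 32. KRT8 to KRT18 was 9.84 ± 2.01 and 11.9 ± 2.09 in WT and KO rats 17 to 24, and 14.0 ± 3.37 and 18.8 ± 1.16 in rats 25 to 32, with overlap in each range.

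**Figure D4:**
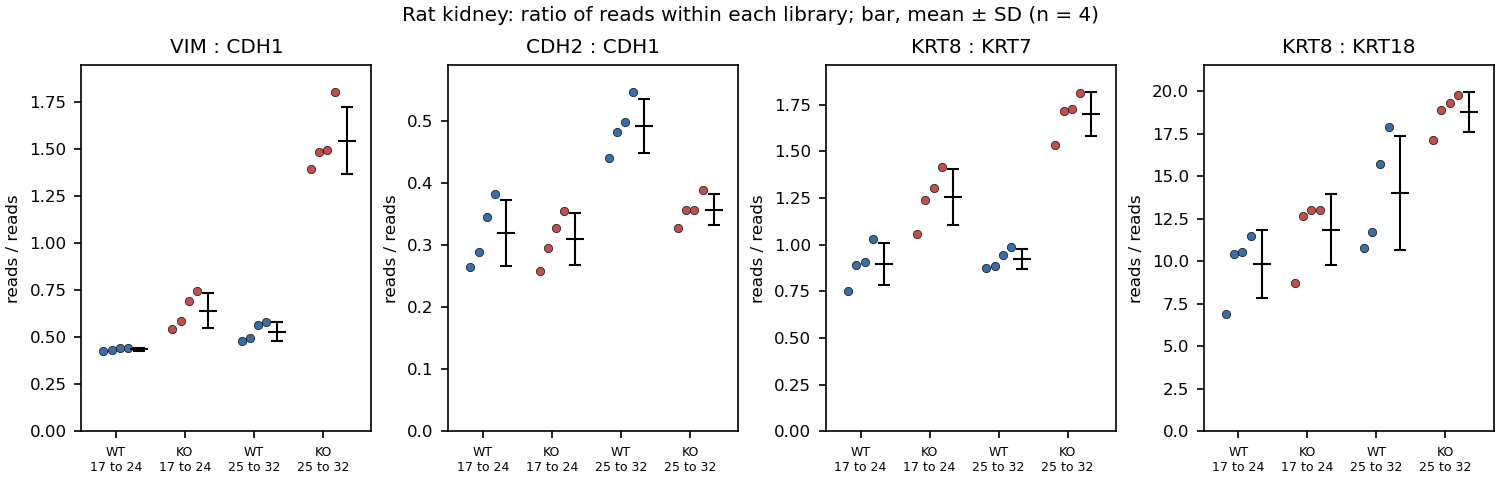
Ratio of the reads of 2 members within each rat library (y axis from 0) by genotype and number range (x axis). Points are rats and bars the mean ± SD of 4 rats; VIM to CDH1 is highest in KO rats 25 to 32, and CDH2 to CDH1 is lower in KO than in WT rats of that range.

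The mouse values were tested with limma on log2(value + 1), where a value of 1 is the 75th percentile of a library, so a fold change of a low gene is understated. KRT20, a type I keratin of gut epithelium and of urothelial umbrella cells that injured mouse tubules also make, was the 1 member that rose, where 3.5% of all symbols rose. It had 55, 144, 151 and 111 reads in KO mice 3, 5, 6 and 8, and 4, 2, 11 and 29 reads in WT mice 1, 2, 4 and 7. Each KO library held more of them than any WT library. The scaled value was 0.0827 ± 0.0247 in KO and 0.00692 ± 0.00540 in WT mice (SD, n = 4 each). The change was 0.10 ± 0.02 on the log2(value + 1) scale (limma adjusted p = 0.0152). On the recovered reads the log2 fold change was 3.46 (edgeR adjusted p = 0.000462). The call stood without any 1 mouse (limma adjusted p = 0.0176 to 0.0487). A filter on mean values of at least 0.1 removed KRT20 from the test. Of 7 urothelium markers, 0 passed the limma test, and their summed scaled value was 0.0487 to 0.181 in KO and 0.0663 to 0.359 in WT mice.

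The other members did not pass in mice, and 0 fell by limma, edgeR or DESeq2, also at an unadjusted p under 0.05, where 0.817% of all symbols fell. KRT8 was at 2.72, 2.98, 2.57 and 2.85 in KO mice 3, 5, 6 and 8 and at 2.50, 1.93, 2.49 and 2.30 in WT mice 1, 2, 4 and 7 (scaled values). All KO mice were higher, by 1.21 times in the means, yet the adjusted p was 0.156 (limma, log2 fold change 0.20 ± 0.06, SE). VIM was at 1.12, 1.28, 1.44 and 1.32 in KO and at 0.978, 1.41, 0.889 and 0.997 in WT mice, and WT mouse 2 overlapped the KO group (limma adjusted p = 0.392). Markers of cells that hold vimentin were higher in KO mice too. Of 7 fibroblast markers 4 rose, with summed values of 3.53 to 4.36 in WT and 6.39 to 7.16 in KO mice. Of 8 leukocyte markers 5 rose, with 2.49 to 2.72 and 3.71 to 4.25. Over all symbols 3.5% rose in mice. KRT7 was 3.04 ± 0.14 in KO and 3.23 ± 0.22 in WT mice, KRT18 0.4999 ± 0.0786 and 0.468 ± 0.063, and KRT19 0.0568 ± 0.0154 and 0.0627 ± 0.0360 (scaled value, SD, n = 4 each). Among the cadherins, CDH16 was 35.8 ± 1.46 in KO and 34.2 ± 4.27 in WT mice, CDH1 6.11 ± 0.53 and 5.95 ± 0.32, CDH6 0.310 ± 0.019 and 0.275 ± 0.079, and CDH2 0.180 ± 0.023 and 0.178 ± 0.053. These groups overlapped, and the adjusted p-values ran from 0.5259 for KRT7 to 0.964 for CDH2 (limma). Reads of CDH2 to CDH1 stood at 0.0297 ± 0.0047 in KO and 0.0303 ± 0.0105 in WT mice (SD, n = 4 each).

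**Figure D5:**
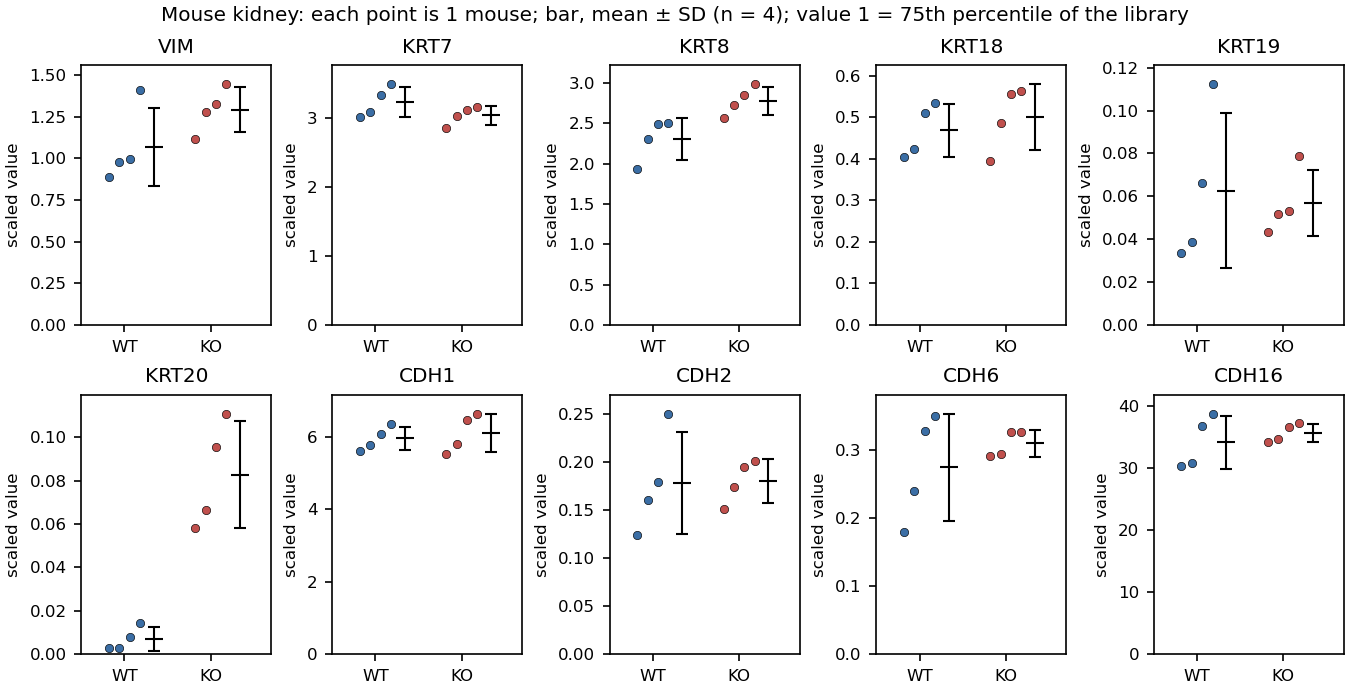
Scaled value of each member in each mouse (y axis from 0, 1 being the 75th percentile of the library) for 4 WT and 4 KO mice (x axis). Points are mice and bars the mean ± SD; KRT20 separates the genotypes and KRT8 does so by a small step, while the cadherins overlap.

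Tested between species on values scaled alike (limma, interaction of species and genotype), none of the 9 shared members passed for a different change in rat and mouse. Of all symbols, 1.8% had a more positive and 1.36% a more negative change in rats. Rats of both number ranges were pooled without a term for range, so differences between the ranges add to the spread in this test. By edgeR on the reads none passed either. At an unadjusted p under 0.05 there was 1, VIM, with a change 0.66 ± 0.21 greater in rats on the log2(value + 1) scale (SE; adjusted p = 0.0897). Without KO rat 18 or KO rat 22 it passed (log2 differences 0.74 and 0.73, limma adjusted p = 0.0328 and 0.0417).

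The genes around the members were followed by lists. Their counts over all rats stand against 15.2% of all symbols higher and 12.3% lower, and in mice against 3.5% and 0.817%. The shares were 5.07% higher and 2.19% lower in rats 17 to 24, and 21.8% and 22.1% in rats 25 to 32. Of 43 other keratins, 4 were tested over all rats and 1 rose, KRT23 (log2 fold change 0.65 ± 0.19, edgeR adjusted p = 0.0178), from 0.747 to 1.17 CPM. KRT23 passed in neither number range alone (edgeR adjusted p = 0.240 in rats 17 to 24 and 0.0506 in rats 25 to 32). Of 7 tested in rats 17 to 24 none passed. Of 5 tested in rats 25 to 32, 2 rose (KRT75 and KRT80) and 0 fell. In mice 37 were tested and none passed limma's test. Of 11 other intermediate filament genes tested in rats, 4 rose and 1 fell, with NEFH (1.01), LMNB1 (0.78) and LMNB2 (0.47) among those that rose, and the 1 that fell is close to the share of all symbols. By range, 1 of 11 rose (LMNB1) and 0 fell in rats 17 to 24, and 5 of 11 rose and 2 fell in rats 25 to 32. The nuclear lamin LMNB1 rose in mice too (0.09 on the log2(value + 1) scale, limma adjusted p = 0.0468). The list medians were 0.04 for keratins and 0.13 for the other filament genes, against -0.02 for all symbols.

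Of 10 other cadherins tested over all rats, 6 rose and 1 fell, with a median log2 fold change of 0.29 against -0.02 for all symbols. By range, 2 of 10 rose (CDH17 and CDHR1) and 0 fell in rats 17 to 24, and 5 of 10 rose and 1 fell in rats 25 to 32. CDH17, an intestinal cadherin, averaged 0.191 ± 0.094 CPM in WT and 1.29 ± 0.71 CPM in KO rats (SD, n = 8 each). It is 1 of the 6 and counts in the median, but it reached the level of the filter on low counts in 1 of 8 WT and 8 of 8 KO rats. CDH17 thus entered the test through the group where it is high, and its levels are a description. CDHR1 and CDH24 reached that level in 8 of 8 rats of each genotype, and CDH3, CDH20 and CDHR5 of the 6 were not checked for it. CDHR1, a photoreceptor cadherin, went from 1.37 ± 0.20 to 3.90 ± 0.62 CPM (1.51 ± 0.12, edgeR adjusted p = 4.56e-07), and CDH24 from 2.18 ± 0.50 to 3.76 ± 0.65 CPM (0.78 ± 0.15, edgeR adjusted p = 0.000903). CDH24 did not pass in rats 17 to 24 (0.43 ± 0.15, edgeR adjusted p = 0.0992). In mice CDH24 rose by 0.016 on the log2(value + 1) scale (limma adjusted p = 0.0224), from a scaled value of 0.0191 to 0.0303. Those means lie under the 0.1 of the filter that removed KRT20. All 3 cadherins stayed under 5 CPM on average in both genotypes of the rats.

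Genes of the proteins that anchor cadherins and keratins were listed separately. Of 13 catenin and adherens junction genes tested over all rats, 1 rose (NECTIN2, log2 fold change 0.48) and 3 fell, NECTIN1 (-0.60), PKP4 (-0.52) and NECTIN3, counts near the shares of all symbols. The median was -0.03 against -0.02 for all symbols. By range, 0 of 13 rose and 1 fell (PKP4) in rats 17 to 24, and 1 rose and 5 fell in rats 25 to 32. Of 12 desmosome and keratin anchor genes, 5 rose over all rats and 0 fell, with a median of 0.09. They were led by ITGB4 (1.99 ± 0.30, edgeR adjusted p = 0.000154), the integrin chain of hemidesmosomes, then PKP1 (0.85) and DSC2 (0.77). By range, ITGB4 alone rose and 0 fell in rats 17 to 24, and 5 rose and 1 fell in rats 25 to 32.

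Genes of mesenchymal transition were tested beside VIM and CDH2. Over all rats, 6 of 12 rose and 0 fell, with a median log2 fold change of 0.34. The matrix protease MMP2 had a log2 fold change of 1.38 and S100A4, a calcium-binding protein, of 1.003. TWIST2, a transcription factor and 1 of the 6, averaged 0.252 CPM in WT and 0.899 CPM in KO rats and reached the filter's level in 2 of 8 WT and 6 of 8 KO rats, so its levels too are a description. By range, 2 of 12 rose in rats 17 to 24 (MMP2 and TGFB1) and 9 of 12 in rats 25 to 32 (TWIST2 among them), and 0 fell in either. The interaction gave 7 of 12 with a more positive change in rats 25 to 32, TWIST2 again among them, against 7.1% of all symbols. In mice 4 of 15 rose, MMP2 among them (limma adjusted p = 0.0188). Of 15 genes of dedifferentiated tubules, 12 rose over all rats and 0 fell (median 0.61), led by HAVCR1 (4.27), LCN2 (3.99) and SPP1 (3.59). By range, 7 of 15 rose in rats 17 to 24 and 13 of 15 in rats 25 to 32, and 0 fell in either. The interaction gave 8 of 15 with a more positive change in rats 25 to 32, against 7.1% of all symbols. In mice 8 of 16 rose, LCN2 and SPP1 among them. HAVCR1 encodes a receptor of injured proximal tubules, LCN2 a siderophore-binding protein and SPP1 osteopontin. HAVCR1 did not pass in mice, at 0.386 ± 0.145 in WT and 0.329 ± 0.028 in KO animals (scaled value, SD, n = 4 each; limma adjusted p = 0.810). HAVCR1 was not in whole reads in either species and is uncertain to that extent.

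The genes most like VIM and KRT8 were sought over the 16 rats by the root mean square difference of centred log2 CPM, among 9173 symbols of at least 5 CPM on average. Nearest to VIM were ANXA5 (0.106), TMEM176A (0.128) and MMP2 (0.130), against a spread of VIM itself of 0.651, and KRT8 stood at rank 97. Nearest to KRT8 were BAK1 (0.129), TGFB1 (0.140) and UNC93B1 (0.143), while VIM stood at rank 288 and KRT18 at rank 1364. These likenesses describe the 16 libraries, which differ in genotype and number range together.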

How the data were processed

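Bulk RNA sequencing libraries, 1 per animal, covered 4 Ctns KO and 4 Ctns WT mice and 8 Ctns KO and 8 Ctns WT rats, grouped by the labels. Stranded mRNA libraries were read in pairs of 100 nucleotides. The submitters' processing notes name bcl2fastq 2.20, STAR 2.7.3, DESeq2 1.24.0, R 3.6.1 and the builds mm10 and rn5, without roles. The counting, the annotation and any filter are not given in the sources used here. For the mouse, the authors deposited a signal per symbol: the values show it to be reads plus 0.5 over the library's 75th percentile plus 0.5. Whole reads (within 0.01) came out for 99% of values. The rat table holds estimated counts deposited by the authors: each is a read count with a small constant offset, which was removed before rounding to whole numbers (97.7% of values were whole). Members of uncertain reads are named as such.

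Mouse values were tested with limma 3.58.1 (trend, robust) on log2(value + 1) without a filter. Rat counts were tested with edgeR 4.0.16 (quasi-likelihood, robust, TMM, filterByExpr) in R 4.3.3, for all rats, for each number range and for the interaction. The SE of an edgeR log2 fold change is its size over the root of the F statistic. The species difference used limma on all 24 animals. P-values are two-sided, adjusted by Benjamini-Hochberg over all symbols, with a threshold of 0.05. Scripts were tested on simulated data. Alternatives were pseudocount 0.1, filters on low values, DESeq2 1.42.0, other scalings, limma-voom, the number range as a covariate and each animal left out; scaling by library totals was added after the data were seen. The 10 members and all lists were chosen with earlier results of these data known. Named were all members and, per list, up to 3 symbols past the threshold over all rats with the largest fold change, with any call in mice; likeness covered VIM, KRT8 and CDH16, of which the last is not reported here. Marker and list genes past these 3 are named only where a count rests on them, after their values were seen. Which group brought such genes past the filter on low counts was not checked. Copies were sought with BLAST 2.17.0 among GENCODE vM21 transcripts. Libraries of a group all differed by more than sampling noise (lowest chi-square over its degrees of freedom 12.4 among 6 pairs per mouse group and 8.64 among 28 pairs per rat group). Depth covers counting error only, and p-values measure the spread between these animals.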

Additional observations from a re-analysis of the deposited data

Results flagged for a closer look

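The change with genotype differed between rats 17 to 24 and rats 25 to 32 for 4 members by the edgeR interaction test over all 16 rats, each time being more positive in rats 25 to 32. The difference was 1.16 on the log2 scale for VIM (adjusted p = 7.42e-05), 0.81 for KRT8 (adjusted p = 0.00166), 0.42 for KRT7 (adjusted p = 0.0362) and 0.25 for CDH16 (adjusted p = 0.0477), all from the edgeR interaction. VIM rose in both ranges and more in the second, KRT7 fell in the first, KRT8 rose in the second, and CDH16 passed in neither. Number range cannot be told apart from whatever else separated these animals.

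Single animals stood apart from their group for 2 members, among 74 groups of 4 to 8 animals looked at, where chance alone is expected to pick about 1 in 20. VIM in KO rat 28, at 283 CPM, lay far above the other KO rats of 25 to 32, which were at 226 to 233 CPM. Without it the log2 fold change of VIM in rats 25 to 32 was 1.60 instead of 1.67 (edgeR adjusted p = 7.23e-07). CDH6 in WT rat 27, at 32.3 CPM, lay far above the other WT rats of that range, at 22.8 to 24.4 CPM. That library was also the deepest of the rats, at 40629873 reads. Levels in CPM are already scaled to depth, and a part of depth in the CDH6 value was not tested.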

How the results depend on the processing

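No paired analysis was run, because the sample labels used here give no litter. The controls were littermates, so any pairing by litter was left out of the tests. Of the other settings, 861 values of single members kept their direction and side of the threshold, 32 lost and 18 gained a call, and 35 changed sign, and 182 of the counts of called members stayed within 1.5 times and 26 did not. The cause of a change was not tested unless stated. VIM kept its calls in rats under every setting run, and KRT8 kept its calls over all rats and in rats 25 to 32.

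Filtering mice at a mean value of at least 0.1 gave 0 members higher instead of 1, since KRT20 left the test. With the number range as a covariate 1 member fell over all rats instead of 0 (CDH2). Scaling by library totals, chosen after seeing the data, gave 0 members lower in rats 17 to 24 instead of 1, 7 higher and 0 lower in rats 25 to 32 instead of 4 and 1, and 7 instead of 4 with a more positive change in rats 25 to 32 than in 17 to 24. Leaving out each animal in turn gave 0 to 1 member lower over all rats, 0 to 1 lower in rats 17 to 24, 1 to 2 lower in rats 25 to 32, 2 to 5 more positive by interaction and 0 to 1 more positive in rat than in mouse.

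Signs changed for uncalled members near 0. Over all rats the log2 fold change of KRT7 turned to 0.059 by upper quartile scaling and 0.092 by library totals, and CDH16 turned to 0.0058 in the species difference by edgeR on reads. Leaving out animals, KRT7 ran from -0.085 to 0.055 and CDH1 from -0.0019 to 0.076 over all rats. In rats 17 to 24, KRT18 ran from -0.14 to 0.077, KRT19 from -0.13 to 0.16, CDH2 from -0.15 to 0.00027 and CDH6 from -0.10 to 0.020. In mice KRT19 ran from -0.021 to 0.015, CDH1 from -0.0059 to 0.069 and CDH2 from -0.019 to 0.032. In the species difference CDH1 ran from -0.011 to 0.067 and CDH16 from -0.070 to 0.045.

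Over all symbols, the mouse test called 609 higher and 142 lower, against 465 and 236 with the filter, 815 and 383 by edgeR and 936 and 584 by DESeq2 on the reads. Over all rats 1760 and 1420 became 2329 and 867 by upper quartile scaling, 2644 and 687 by library totals and 2285 and 2266 once number range was a covariate. In rats 17 to 24, 589 and 254 became 749 and 467 by DESeq2. By library totals, 2534 and 2566 in rats 25 to 32 became 4252 and 1135, and 841 and 904 by interaction became 2309 and 347. The species difference called 202 and 153, against 195 and 81 by edgeR and 153 and 99 with pseudocount 0.1. Leaving out 1 animal moved these counts, and so the shares set beside the members, by over 1.5 times in places. The lowest were 297 higher (without WT mouse 4) and 34 lower (without KO mouse 6) in mice, and 392 higher and 112 lower (both without KO rat 24) in rats 17 to 24. By interaction they were 487 and 523 (both without KO rat 28), with 1388 lower without KO rat 30, and in the species difference 87 and 94 (both without KO mouse 6). Over all rats and in rats 25 to 32 they stayed within 1.5 times. Reads of KRT20 in WT mice and of KRT19 in rats limit the precision of those values.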
